A study of Mus musculus with 2 samples.

Results

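The Mir29 family of the mouse comprises 4 miRNA genes at 2 loci, Mir29a and Mir29b-1 on chromosome 6 and Mir29b-2 and Mir29c on chromosome 1. The members were chosen by gene name, as the rows whose Ensembl identifier belongs to 1 of these 4 genes in GENCODE, and all 4 were found among the 1973 miRNA genes counted. The libraries came from short RNAs of embryonic limb at day 13.5, from healthy B6NCrl mice with males and females pooled, and no sample was treated or mutant. There was 1 group with 2 biological replicates, which carry the same donor label. The labels do not say how many embryos were pooled or whether the replicates were separate litters, so the spread given below is that between these 2 tissue samples.

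A miRNA is cut from a hairpin precursor, whose 5′ and 3′ sides (the 5p and 3p arms) can each give a mature RNA. The mature RNA guides Argonaute to messenger RNAs, mainly through its seed, bases 2 to 8, which pairs with complementary sites in 3′ UTRs. The miR-29 family is known for repressing collagen and other extracellular matrix messages and is often studied in fibrosis, where its level falls. It also targets the DNA methyltransferases Dnmt3a and Dnmt3b. In all members the 3p arm is the one usually regarded as the guide strand.

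The 3p arms are shown first because they define the family and decide which reads could be told apart. The seed is in capitals, and the letters are RefSeq's on GRCm38.p6, the same assembly as mm10.
miR-29a-3p: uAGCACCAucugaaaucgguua
miR-29b-3p (Mir29b-1 and Mir29b-2): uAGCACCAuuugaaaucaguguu
miR-29c-3p: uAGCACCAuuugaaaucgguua

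The seed was the same in all members, AGCACCA, and none of the 1738 mature arms in the RefSeq table carried it outside the Mir29 genes. Counting from the 5′ end of the first-named RNA, miR-29a-3p and miR-29c-3p differed by the single substitution C10U. Between miR-29a-3p and miR-29b-3p there were 4 substitutions over 22 positions, C10U, G18A, U21G and A22U. Between miR-29b-3p and miR-29c-3p there were 3, all in the 3′ part, A18G, G21U and U22A, so these RNAs began with 17 identical bases. The 3p arms of Mir29b-1 and Mir29b-2 were letter for letter the same, 23 bases long.

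The hairpins of all members are given with the 3p arm in capitals, to show what surrounds the shared stretch.
Mir29a: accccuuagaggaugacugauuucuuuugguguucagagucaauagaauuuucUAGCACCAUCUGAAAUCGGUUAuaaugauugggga
Mir29b-1: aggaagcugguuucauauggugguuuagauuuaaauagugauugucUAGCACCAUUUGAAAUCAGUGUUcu
Mir29b-2: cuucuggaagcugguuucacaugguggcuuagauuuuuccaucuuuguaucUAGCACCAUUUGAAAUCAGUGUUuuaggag
Mir29c: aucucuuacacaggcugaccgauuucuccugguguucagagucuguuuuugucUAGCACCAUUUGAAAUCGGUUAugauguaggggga

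The longest stretch common to Mir29b-1 and Mir29b-2 was 25 bases, ucuagcaccauuugaaaucaguguu, which is the whole 3p arm with a pair of bases before it. Mir29b-1 and Mir29c had 22 bases in common, Mir29b-2 and Mir29c 19, and Mir29a and Mir29c 14. No gene outside the family shared 14 or more bases with a member among the annotated mouse miRNA hairpins. Of all 22-base windows, 5 of 50 in Mir29b-1, 4 of 60 in Mir29b-2 and 1 of 67 in Mir29c recurred in another annotated hairpin, and 0 of 67 in Mir29a did. Windows of 26 bases were unique in all members. A full-length miR-29b-3p read thus had more than 1 exact origin, whereas miR-29a-3p and miR-29c-3p reads each had 1 among the annotated hairpins.

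The 5p arms of the Mir29b genes are shown because they could tell the copies apart, with the seed in capitals.
miR-29b-1-5p: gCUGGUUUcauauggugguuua
miR-29b-2-5p: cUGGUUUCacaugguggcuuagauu
Aligned with a shift of 1 base they were identical at 19 of 21 positions, and each was found in 1 annotated hairpin alone.

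Mir29a lies at chr6:31062660-31062747 on the minus strand, in no other annotated gene. Mir29b-1 lies 275 bases away on the same strand, at chr6:31063023-31063093, and only 2 of its 71 bases overlap an annotated exon, that of the long noncoding RNA gene Gm27019. On chromosome 1, Mir29b-2 (chr1:195037040-195037120) and Mir29c (chr1:195037547-195037634) are separated by 426 bases on the plus strand. Both lie wholly within an annotated exon of 1 of the 4 transcripts of the noncoding gene A330023F24Rik. On the opposite strand both lie in exonic sequence of 1 of the 4 transcripts of Cd46, which encodes a complement regulatory membrane protein. The antisense count was 0 for all 4 members in each library. The nearest other annotated miRNA genes were Mir335, 321264 bases from the chromosome 6 cluster, and Gm24802, 190644 bases from the chromosome 1 cluster.

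The unit of level is CPM, a gene's sense counts per 1000000 sense counts in all miRNA genes of its library. Levels were not divided by hairpin length, since a short RNA read spans a mature arm whatever the hairpin's length. Replicates 1 and 2 held 5927321 and 6003632 such counts, so 3 counts, the one-sided 95% limit that a count of 0 allows, correspond to 0.506 and 0.4997 CPM. In addition, 3819178 reads (30.8%) of replicate 1 and 3732521 (29.5%) of replicate 2 mapped to several places and entered no gene. The labels name no molecular identifiers, and the intervals and limits therefore hold for counting error alone. Among markers for the labelled tissue, the cartilage gene Mir140 (46627 ± 99.8 CPM, SD, n = 2) and the muscle gene Mir206 (3841 ± 141 CPM) were abundant. The muscle gene Mir133b (75.3 ± 0.0304 CPM) was as low as the liver gene Mir122 (73.7 ± 9.8 CPM), and the heart gene Mir208a was at 6.8 ± 2.7 CPM. Mir122, a gene of another tissue, thus had a higher mean than Mir29a (61.8 CPM) and Mir29c (36.0 CPM), and the source of its reads was not tested.

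Uniquely mapped reads of the Mir29 family were few in the embryonic limb, and they came almost wholly from Mir29a and Mir29c. Together the family held 511 counts in replicate 1 and 660 in replicate 2. This was 0.00862% (exact Clopper-Pearson 95% interval 0.00789% to 0.00940%) and 0.0110% (0.0102% to 0.0119%) of sense counts, with a mean of 0.00981% ± 0.00168 (SD, n = 2). The Mir29b genes contributed 3 of the 1171 family counts, 0.256% (exact Clopper-Pearson 95% interval 0.0529% to 0.747%). Whether fewer cells or less RNA per cell underlies a low level cannot be told apart in whole tissue.

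Mir29a, the most abundant member as counted here, had 316 counts in replicate 1 and 422 in replicate 2. These correspond to 53.3 CPM (exact Poisson 95% interval 47.6 to 59.5) and 70.3 CPM (63.7 to 77.3), with a mean of 61.8 ± 12.0 CPM (SD, n = 2). Replicate 2 was the higher, and the counting intervals did not overlap. By mean, Mir29a ranked 212th of 1973 genes and 1217-fold below Mir196b, the gene with the highest mean.

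Mir29c, whose mature RNA differs from that of Mir29a at 1 base, had 192 and 238 counts in replicates 1 and 2. These were 32.4 CPM (exact Poisson 95% interval 28.0 to 37.3) and 39.6 CPM (34.8 to 45.0), with a mean of 36.0 ± 5.1 CPM (SD, n = 2) and rank 238. Replicate 2 was again the higher, here with overlapping counting intervals. The lower Mir29a value lay above the higher Mir29c value, so these members did not overlap.

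Mir29b-1 had 3 counts in replicate 1, 0.506 CPM (exact Poisson 95% interval 0.104 to 1.48), and 0 in replicate 2. Mir29b-2 had 0 counts in each library, which allows up to 0.506 and 0.4997 CPM at the one-sided 95% limit of 3 counts (0.622 and 0.614 CPM at the exact two-sided 95% limit). The order of the Mir29b genes was not resolved, and no ratio between them is given because both lay at or under 3 counts. Of all 1973 genes, 1259 (63.8%) likewise had 0 counts in each library. For the Mir29b genes this limits only reads that map to 1 place. How many miR-29b-3p reads were among the multimapping reads was not tested, and the level of the mature RNA is not known from these counts.

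**Figure D1:**
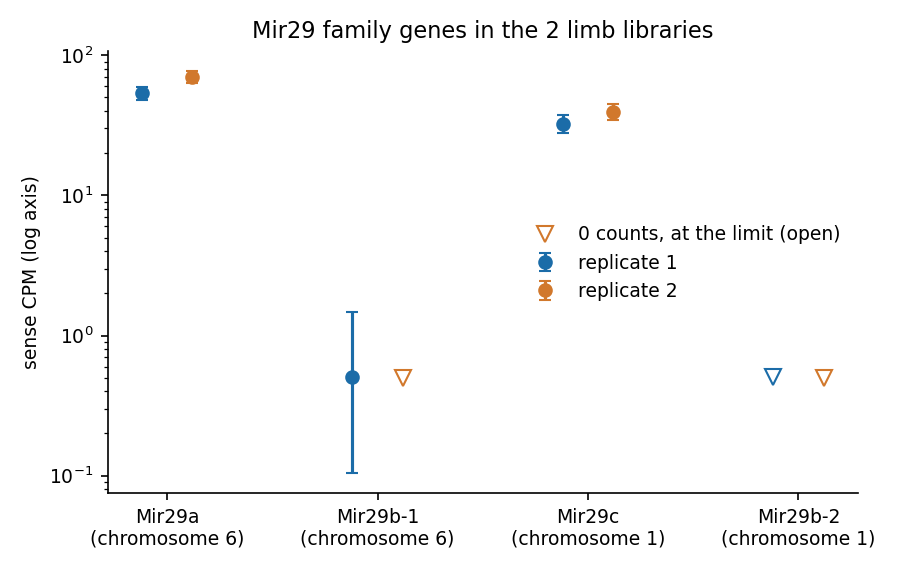
Sense CPM on a log axis for each Mir29 gene in each library, with exact Poisson 95% intervals as bars and open triangles at the limit of 3 counts where the count was 0. Mir29a (53.3 and 70.3 CPM) and Mir29c (32.4 and 39.6 CPM) stand well above both Mir29b genes.

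Detection required 10 or more counts in each library, which 2 of the 4 members (Mir29a and Mir29c) and 372 of 1973 genes (18.9%) reached. Both detected members lay below the median of detected genes, 106 CPM, and above their lower quartile, 10.9 CPM. By mean, 211 detected genes lay above Mir29a and 237 above Mir29c. Over both libraries, with distance taken as the summed absolute difference in log2(CPM + 1), the genes closest to Mir29a were Mir3102 (62.6 and 72.6 CPM, distance 0.27) and Mir30c-1 (56.5 and 58.8 CPM, distance 0.34). Closest to Mir29c were Mir193b (37.8 and 41.6 CPM, distance 0.29) and Mir877 (37.6 and 36.5 CPM, distance 0.33). Over 2 libraries this measures likeness of level and nothing else. With 0 counts in each library Mir29b-2 was tied with 1258 other genes, and 7 other genes had the same counts as Mir29b-1.

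**Figure D2:**
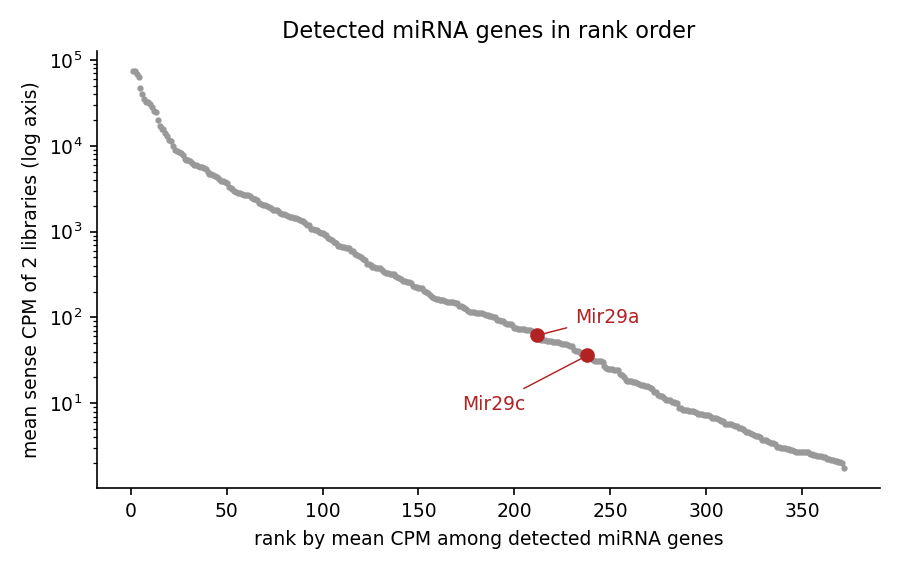
Mean sense CPM of the 372 detected miRNA genes on a log axis against their rank, with Mir29a and Mir29c in red. They sit at ranks 212 and 238, in the lower part of the curve.

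The rule groups the genes in 2 clusters, and the question was whether one locus gave more reads than the other. In each library the chromosome 6 cluster held more counts than the chromosome 1 cluster. The sums were 319 against 192 in replicate 1, a ratio of 1.66 (exact Clopper-Pearson 95% interval 1.38 to 2.00), and 422 against 238 in replicate 2, a ratio of 1.77 (1.51 to 2.09). The mean log2 ratio was 0.78 ± 0.07 (SD, n = 2). Both intervals lay above 1. The difference was not tested over samples, because the smallest two-sided exact p that 2 libraries allow is 0.5.

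The ratio of the clusters was that of Mir29a over Mir29c. Those genes alone gave 1.65 and 1.77, with a mean log2 ratio of 0.77 ± 0.08 (SD, n = 2), and Mir29a made up 62.2% and 63.9% of their summed counts. These shares did not differ between the libraries beyond counting error (Fisher's exact test, two-sided, p = 0.582). The miR-29b-3p reads, which either locus can give, are nearly absent from both sums. The ratio therefore compares Mir29a with Mir29c and not the whole output of the loci. Reads with an error at the 1 base that tells miR-29a-3p from miR-29c-3p could be placed in the other gene, and their number was not tested. Reads cut short could be lost unequally, since miR-29c-3p shares its first 17 bases with miR-29b-3p and miR-29a-3p only its first 9. The part of such reads in the ratio was not tested either.

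In uniquely mapped counts, the member of each cluster without an identical copy was far ahead. Mir29a exceeded Mir29b-1 105-fold in replicate 1 (316 against 3 counts, exact Clopper-Pearson 95% interval 35.7 to 514), and was at least 140.6-fold higher in replicate 2, where Mir29b-1 was set at the limit of 3 counts (113.9-fold at the exact two-sided 95% limit). With the same limit per library, Mir29c was at least 64-fold and at least 79.3-fold higher than Mir29b-2 in replicates 1 and 2 (51.5-fold and 64.0-fold at the exact two-sided 95% limits). The lower member of each cluster was the one whose 3p arm has an exact copy on the other chromosome.

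Other genes whose arms are copied elsewhere were often counted. RefSeq gave mature arms for 916 of the counted genes. Of these, 87 had an arm identical to that of another gene, and 54.0% of them were detected, against 35.1% of the 829 with no such arm. The order was the opposite where a copy meant 22 or more identical hairpin bases, at 7.69% of 871 genes with a copy against 29.8% of 1023 without. That split also took in genes without RefSeq arms, so the set of genes differs as well as the meaning of a copy. Mir29b-1 and Mir29b-2 belong to 53 genes with 1 shared arm and 1 arm of their own, of which 75.5% were detected. Of the 34 genes with every annotated arm shared, 20.6% were detected. The classes also differ in how many arms are annotated, and the part of that in these shares was not tested.

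Among the 53 genes with an arm of their own, 11 (20.8%) had at most 3 counts in each library, Mir29b-1 and Mir29b-2 among them. These genes formed 22 families with at least 2 counted copies. All copies were detected in 16 families, and in 3 all copies had at most 3 counts in each library, those of Mir29b, Mir344d and Mir465, which were named after their values were seen. Mir30c-1 had 335 and 353 counts and Mir30c-2 had 65 and 71. Mir26a-1 had 63 and 62 counts and Mir26a-2 had 223 and 212. Every one of these values was above those of Mir29b-1 and Mir29b-2, by more than their counting limits. These are descriptions over genes, which are not replicates, and no test was made. The families were not split by whether the shared arm is the guide.

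**Figure D3:**
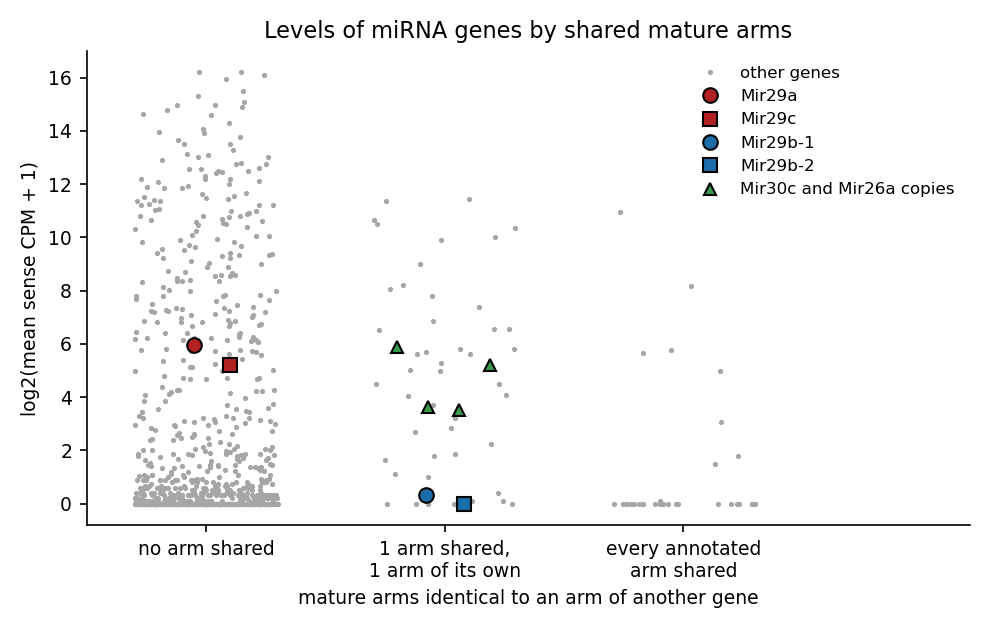
log2(mean sense CPM + 1) of miRNA genes with no shared mature arm, with 1 shared arm and 1 of their own, and with every annotated arm shared; each grey point is 1 gene, and the sideways scatter has no meaning. Mir29b-1 and Mir29b-2 (blue) sit at the bottom of a class of which 75.5% was detected, below the copies of Mir30c and Mir26a (green).

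Mir24 and Mir23 form a similar pair of clusters, in which Mir24 is the copied gene. Mir24-2 was at 220 ± 16.7 CPM (SD, n = 2), while Mir23a and Mir23b, which have no identical arm elsewhere, were at 15886 ± 1526 and 34952 ± 1513 CPM. Mir27a and Mir27b of these clusters also have no identical arm elsewhere, and their means were 224 and 2908 CPM. Mir27a was thus near the copied Mir24-2, and whether levels here go with copying was not tested. Mir24-1 was not analysed here. The copied Mir181b-2 reached 1325 ± 466 CPM and its copy Mir181b-1 21.3 ± 1.6 CPM, so copies were counted unequally there.

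Between the libraries both detected members were higher in replicate 2, by amounts below the minimum ratio of the call. The log2 ratio of replicate 2 over replicate 1 was 0.40 for Mir29a and 0.29 for Mir29c. A gene was called with an adjusted p of at most 0.05 in a two-sided exact binomial test and an absolute log2 ratio of at least 1. Of the 2 members tested 0 were called, against 15 of 444 genes tested (3.38%). By the adjusted p alone, Mir29a passed (exact binomial test, Benjamini-Hochberg adjusted p = 0.000737) and Mir29c did not (exact binomial test, adjusted p = 0.0872), where 40.3% of all genes passed. Unadjusted, both members had p under 0.05. Mir29b-1 and Mir29b-2 had too few counts to enter.

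That test covers counting error only and compares these libraries. A further test took into account the spread between the libraries, a coefficient of variation of 0.111 over 372 genes by edgeR. That spread was estimated from the same 2 libraries that the test compares, treated as 1 group. In edgeR's exact test Mir29a had an unadjusted p of 0.117 and Mir29c of 0.278 (adjusted p = 0.821 and 0.965), and 1 gene of 444 passed. Few genes can pass such a test, so it sets the members beside other genes and does not show equal levels. Of the 103 detected genes with means from 20 to 200 CPM, 12 had an absolute log2 ratio at least as large as that of Mir29a and 23 at least as large as that of Mir29c. The median in that range was 0.15. The direction was the same with TMM and DESeq2 scaling, at 0.41 and 0.42 for Mir29a and 0.31 and 0.31 for Mir29c.

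**Figure D4:**
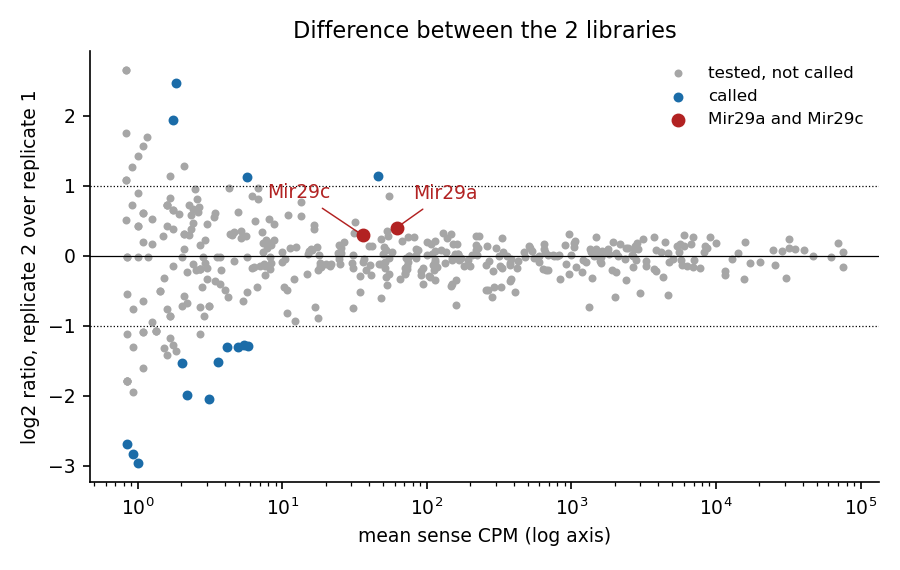
log2 ratio of replicate 2 over replicate 1 against mean sense CPM (log axis) for the 444 genes tested; dotted lines mark the minimum log2 ratio of 1 in either direction and blue points are the 15 genes called. Mir29a (0.40) and Mir29c (0.29) lie above 0 and within the dotted lines.

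Many miRNA genes known as regulators of matrix or fibrosis genes had more counts than Mir29a and Mir29c. Of 26 such genes listed, all were counted and 24 were detected. Their median was 627 CPM, against 106 CPM over detected genes and 0 CPM over all 1973 genes, of which 63.8% had 0 counts in each library. By mean, 19 lay above Mir29a, 2 between Mir29a and Mir29c, and 5 below Mir29c. Of the 372 detected genes, 211 lay above Mir29a. The highest were Mir140, a cartilage miRNA gene, at 46627 ± 99.8 CPM, Mir214 of the Dnm3os transcript at 28501 ± 837 CPM, and Mir26b at 24861 ± 998 CPM (SD, n = 2 each). The lowest were Mir26a-1 at 10.5 ± 0.2 CPM, Mir133a-1 with 0 and 1 counts, and Mir133a-2 with 0 counts. Mir26a-1 shares an arm with Mir26a-2, and RefSeq gave no arms for the Mir133a genes. Reads that map to several places are outside these values, and their number was not tested. Of the 24 tested between the libraries 0 were called, against 3.38% of all genes, and 11 were higher in replicate 2, against 210 of the 444. The list was drawn up from general knowledge of these genes, with earlier results of these data known, and its median is not corrected for copies.

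The family's name as regulator of collagen was checked on sequence, since messenger RNA was not measured here. The letters searched were TGGTGCT, which pair with seed bases 2 to 8, and TGGTGCTA, which add an A opposite base 1 and are a subset of the first, on the sense strand of the longest annotated 3′ UTR of each gene. Of 44 collagen genes, 25 (56.8%) held the 7-base match and 16 (36.4%) the 8-base match, compared with 13.1% and 2.85% of 21020 protein-coding genes. Per 1000 bases of 3′ UTR, collagen genes had 0.693 matches of 7 bases, and all genes 0.106. In the first 1000 bases of 3′ UTRs at least that long, 12 of 24 collagen genes and 1028 of 10241 genes held the 7-base match. A match is a description of letters and does not show that a site is used in the limb.

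**Figure D5:**
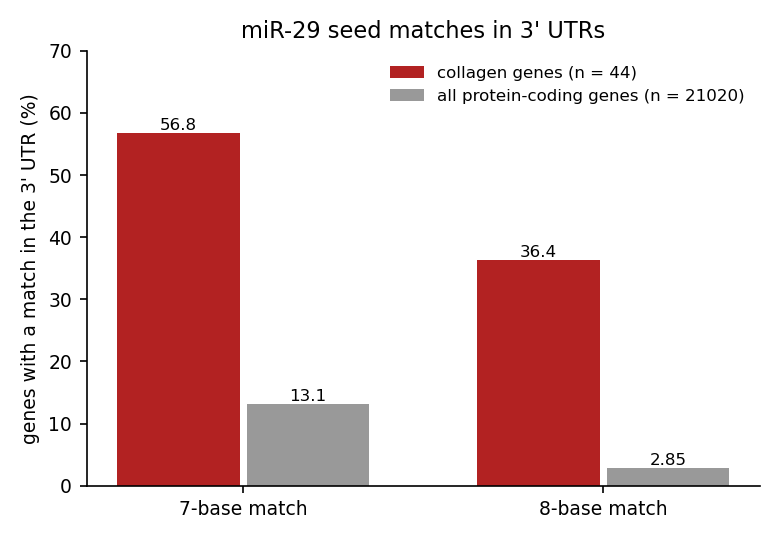
Share of genes (%) with a 7-base or 8-base match to the miR-29 seed in the longest annotated 3′ UTR, for 44 collagen genes (red) and 21020 protein-coding genes (grey). The shares are 56.8% against 13.1% for 7 bases and 36.4% against 2.85% for 8 bases.

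Col5a1, Col26a1 and Col4a3 held 4 matches each, the highest number among the collagen genes. Of the 4 in Col5a1, which encodes a fibril collagen chain and has a 3′ UTR of 2498 bases, 2 were of 8 bases. Col4a5, a basement membrane chain, had 3 matches, all of 8 bases. The major fibril collagens Col1a1 and Col3a1, the basement membrane chain Col4a1 and the cartilage collagen Col2a1 had 1 match each, of 8 bases, and Col1a2, the partner chain of Col1a1, had 0. Sites of well-known targets are shown with 30 bases of the message and the match in capitals.
Col1a1, chr11:94952523-94952552, plus strand: gtgggaaggaatttcTGGTGCTAtagaagc
Col3a1, chr1:45348967-45348996, plus strand: ttcaaaatgtctcaaTGGTGCTAtaataaa
Col4a1, chr8:11199754-11199783, minus strand: gccaccgtcacaacaTGGTGCTActccccc
Col5a1, chr2:28038019-28038048, plus strand: tacacttgtctcttgTGGTGCTAtgtgtcc
Because the seed is the same in Mir29a, Mir29b-1, Mir29b-2 and Mir29c, these letters pair with the seeds of all members and do not tell them apart.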

How the data were processed

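The authors deposited whole-number read counts per miRNA gene for each library, in columns for either strand, sense and antisense; this reading comes from the layout, which has no header but is that of STAR gene counts. The build is mm10 per the labels, with GENCODE M4 per the text deposited beside the counts. The sources used here name no aligner, counting program or settings. Lines without a gene were left out of all totals: 17.2% and 18.6% were unmapped, 30.8% and 29.5% multimapping, and 4.24% and 4.48% on the sense strand of no gene.

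Symbols, positions and hairpins came from GENCODE M21 on GRCm38, matched by identifier without version for 1894 of 1973 genes, and mature arms from RefSeq (GRCm38.p6). RefSeq hairpins of the 4 members were identical to GENCODE's. The edgeR 4.0.16 common dispersion used TMM factors and an intercept-only design, since 1 group with 2 libraries leaves no contrast. Genes with at least 10 summed counts were compared by an exact binomial test against sense totals, with 0.5 counts added for ratios, run in scipy 1.17.1. The test was tried on simulated counts with counting error only, which does not cover the spread between these libraries. DESeq2 1.42.0 size factors served as an alternative.

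Members and lists were chosen with earlier results of these data known. Named were the 4 members, the 2 nearest genes by level, the 3 highest and 3 lowest of the matrix list, genes with the same seed, and fixed copied pairs. The 3′ UTR search and the split of copied genes into those with 1 arm or every arm shared were added after the counts had been seen. So were Mir27a and Mir27b beside the Mir24 and Mir23 genes.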

Additional observations from a re-analysis of the deposited data

How the results depend on the processing

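Of 53 recomputed values for 13 results, 43 kept their place within the replicate spread, counting interval or a factor of 1.5, 8 moved, and 2, both on copied genes, reversed. Some of the 43 could not have moved. A value from 1 of 2 libraries always lies within the SD of their mean. Either-strand counts could not change the ratios between members, whose antisense counts were 0. The tally is therefore not a measure of stability. Adding 5 counts to each gene lowered the log2 ratio of Mir29a over Mir29b-1 from 6.93 to 5.87, and that of Mir29c over Mir29b-2 from 6.15 to 5.45; both main values set counts of 0 at 3. With all reads as denominator the family share was 0.00467%. Without the minimum ratio, 1 member was called between the libraries, Mir29a, and 179 of all genes. The median coefficient of variation by DESeq2 was 0.0351, a different estimator from the common 0.111. Of genes sharing 22 or more hairpin bases, 7.69% were detected, below the 29.8% of the rest, whereas genes sharing an arm lay above theirs (54.0% against 35.1%). The first split also took in genes without RefSeq arms, and the cause of the reversal was not tested. With 1 arm shared 75.5% were detected, and with every arm shared 20.6%, again below the 35.1%.

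Each library alone gave a log2 ratio of the clusters from 0.73 to 0.83, of Mir29a over Mir29c from 0.72 to 0.83, of Mir29a over Mir29b-1 from 6.72 to 7.14 and of Mir29c over Mir29b-2 from 6.0 to 6.31, and a family share from 0.00862% to 0.0110%. The log2 ratios 7.14, 6.0 and 6.31 are lower bounds, with a count of 0 set at 3. Mir29b-1 rests on replicate 1 and was at 0 CPM without it. The ratio of the Mir29b copies alone was not run, as both lay at or under 3 counts. No paired analysis was possible because there is 1 group, and ratios between members are given within each library. Depth limits statements on uniquely mapped reads of the Mir29b genes to levels above about 0.506 CPM, and reads that map to several places are outside them. The 2 libraries limit every test over samples.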
